A study of Mus musculus with 24 samples.

Results

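The genes described here encode the nuclear subunits of the mitochondrial respiratory chain and of ATP synthase. They were chosen by symbol: every gene starting with Ndufa, Ndufb, Ndufc, Ndufs, Ndufv, Uqcr, Cox4, Cox5, Cox6, Cox7, Cox8 or Atp5, with Sdha, Sdhb, Sdhc, Sdhd and Cycs. This gave 88 of 19057 genes and 138 of 45281 probes on the array. By name they were 35 genes of complex I, 4 of complex II, 7 of complex III, cytochrome c itself, 16 of complex IV and 16 of complex V, with 8 complex I assembly factors (Ndufaf genes) and 1 pseudogene symbol (Ndufs5-ps) that share the prefixes. Each gene was followed through its brightest probe among those above background (detection p under 0.05) in at least 12 of 24 arrays, and 81 genes had such a probe. Just inside this limit were Cox6a2 and Uqcrfs1, above background in 15 arrays each, and just outside was Ndufs1, in 9. Cox6a2 passed it through the groups in which it was high, so counts over the 81 genes are descriptions. The subunits encoded by mitochondrial DNA are not among these genes, and Cyc1, the cytochrome c1 of complex III, does not share the prefixes.

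Mononuclear phagocytes (CD11b+ Ly6G- NK1.1-) were sorted from muscle of adult mice, and their amplified RNA was hybridised to Illumina WG6 arrays. On day 4 after notexin, a snake phospholipase that destroys muscle fibres, 4 subsets were taken: F4/80low Ly6Clow cells, called F4/80low below, Ly6Chigh monocytes, and F4/80high Ly6Clow macrophages divided by the lectin Mgl1 into Mgl1high and Mgl1low. The Mgl1high and Mgl1low subsets were also taken from untreated muscle, which made 6 groups. Each group held 1 array from each of 4 strains on the C57Bl/6J background: Ccl2-/- mice without the chemokine CCL2, Cx3cr1-/- mice without the fractalkine receptor, Cx3cr1-/-Ccl2-/- mice without both, and WT mice. Every array was a pool of 3 mice, so a group's 4 replicates were its 4 strains and a strain had no replicate within a group. The p-values therefore measure the spread between pools of different genotype. Values are log2 intensities after background correction and quantile normalization, given below in the order Ccl2-/-, Cx3cr1-/-, Cx3cr1-/-Ccl2-/- and WT. A gene is said to have risen or fallen where limma's adjusted p over all tested probes was under 0.05.

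Probes above background numbered 13638 to 18289 on 20 arrays and 7054 to 10072 on the other 4, which were F4/80low from Cx3cr1-/- (7054) and Cx3cr1-/-Ccl2-/- mice (10072), day-4 Mgl1high from Cx3cr1-/- mice (9369) and untreated Mgl1low from Ccl2-/- mice (9896). These are called the weak arrays. The disrupted Cx3cr1 read 4.91 (Cx3cr1-/-) and 5.02 (Cx3cr1-/-Ccl2-/-), neither above background, against 6.41 (Ccl2-/-) and 7.56 (WT) in Ly6Chigh monocytes, and 5.32 and 4.96 against 7.04 and 6.64 in day-4 Mgl1low macrophages. In F4/80low cells it did not separate the genotypes, at 7.21 and 6.46 against 6.64 and 6.21, nor did it in day-4 Mgl1high macrophages, so the genotype of these arrays is given as labelled. The Ccl2 probe was not lower in Ccl2-/- mice (9.86 against 8.76 in WT Ly6Chigh monocytes), with its position relative to the disrupted part not known. In F4/80low cells all 9 tested macrophage markers fell against the other 3 day-4 subsets (median -2.80), against 10.2% of probes. Of 7 tested dendritic cell markers, from a list of 11, 6 rose (median 2.38), against 4.44% of probes. Of 7 tested monocyte markers 3 fell and 1 rose (median -1.25).

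Complexes I to IV pass electrons from NADH and succinate, through ubiquinone and cytochrome c, to oxygen. Of these, complexes I, III and IV pump protons across the inner mitochondrial membrane. Complex V, the ATP synthase, uses the proton gradient to make ATP. Complex II is at the same time an enzyme of the citric acid cycle. In macrophages the balance between respiration and glycolysis is known to follow the activation state, with inflammatory activation favouring glycolysis and alternative activation favouring respiration.

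Levels of the respiratory chain genes lay close together across the 6 groups. The highest and lowest of a gene's 6 group means differed by a median of 0.80 log2 units over the 81 genes, against 1.09 over the 15019 probes above background in as many arrays, and by more than 1 log2 unit for 23 genes (28.4%, against 56.8% of those probes). The steadiest were Atp5h (0.38), a subunit of the stalk that holds the ATP synthase head, the coupling factor Atp5j (0.40), Ndufb9 (0.41), Ndufa4 (0.44), which carries a complex I name and is now counted with complex IV, Cox7b (0.44) and Sdha (0.47), the flavoprotein that oxidises succinate. The widest were Sdhb (1.91), the iron-sulfur subunit of complex II, and Cox6a2 (1.84), followed by Cox7a2l (1.61), a factor that joins complexes III and IV, Ndufs3 (1.60), a core subunit of complex I, Atp5g2 (1.54) and Ndufa6 (1.54). Apart from Cox6a2, each of these genes had its highest group mean in F4/80low cells. Their highest values in that subset were those of its weak arrays, so these ranges rest in part on them. The array medians of the 81 genes overlapped between groups: they averaged 8.79 ± 0.36 in F4/80low cells, 8.57 ± 0.17 in Ly6Chigh monocytes, 8.61 ± 0.39 and 8.80 ± 0.29 in day-4 Mgl1high and Mgl1low macrophages, and 8.33 ± 0.18 and 8.55 ± 0.18 in untreated Mgl1high and Mgl1low macrophages (SD, n = 4 each).

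**Figure D1:**
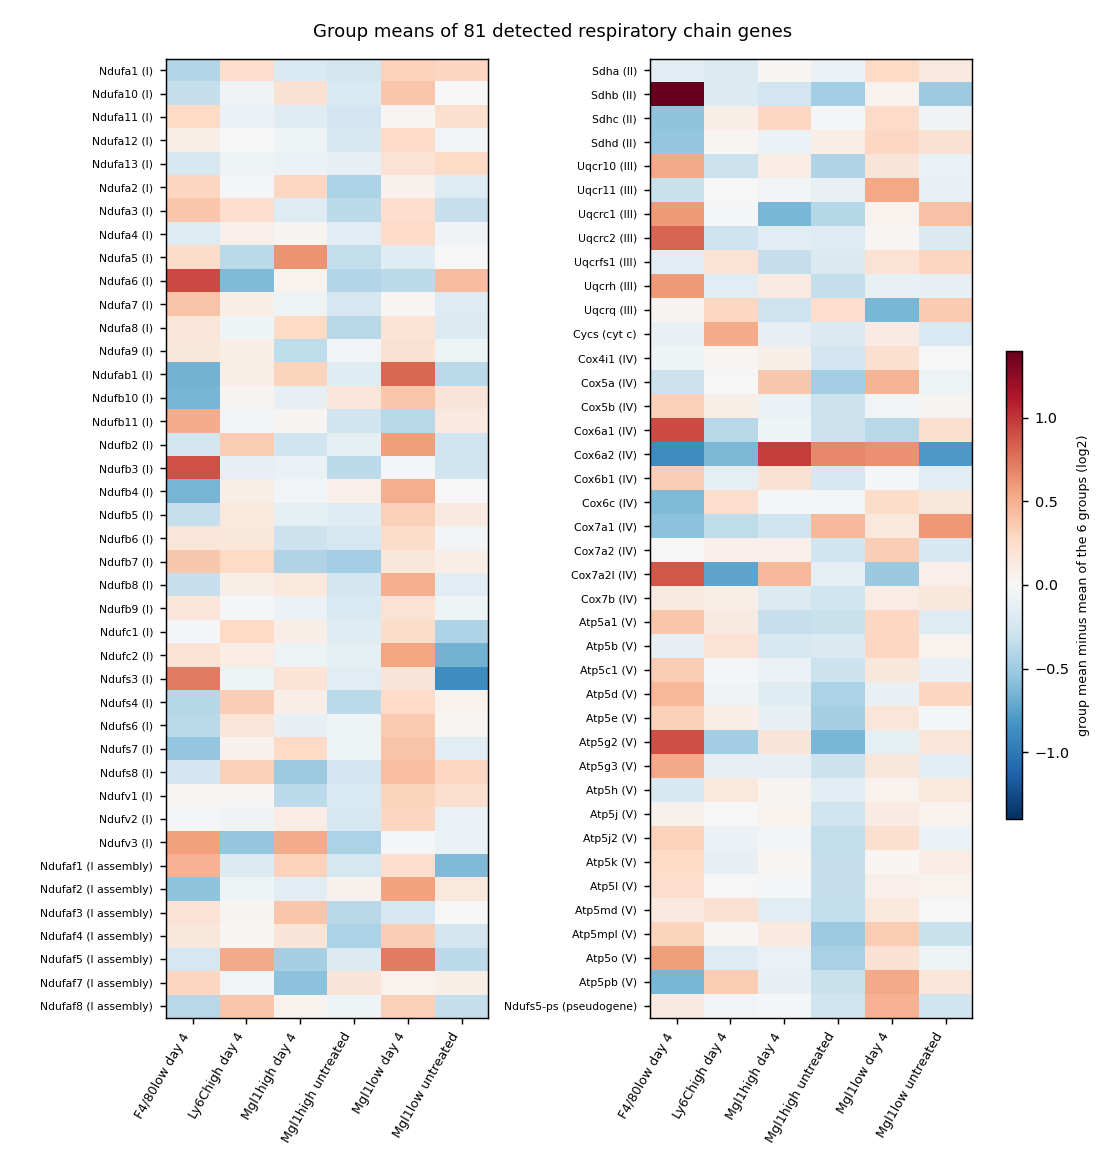
Group means of the 81 detected genes in 6 groups (n = 4 arrays each), each gene as its group mean minus its mean over the groups (colour, log2 units), ordered by complex. Most cells are pale. The strongest colours belong to Sdhb in F4/80low cells, where it was highest on the weak arrays, and to Cox6a2. Cox6a2 is dark red in day-4 Mgl1high macrophages and dark blue in F4/80low and untreated Mgl1low cells.

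Cox6a2 gave the clearest separation of groups. It encodes the heart and skeletal muscle form of subunit VIa of cytochrome c oxidase (complex IV), whose general form is Cox6a1. In F4/80low cells it read 5.04, 4.94, 5.12 and 4.56 and was above background on none of the 4 arrays. In the other day-4 subsets it read 4.75, 5.54, 5.03 and 5.33 in Ly6Chigh monocytes (2 of 4 above background), 6.63, 7.33, 6.40 and 6.66 in Mgl1high macrophages and 6.36, 6.56, 6.37 and 6.41 in Mgl1low macrophages, above background on every array of both. Both macrophage subsets thus lay above both other subsets in all strains, with no overlap. In untreated muscle it read 6.35, 6.73, 6.35 and 6.43 in Mgl1high macrophages, all above background, and 5.01, 5.67, 4.70 and 4.55 in Mgl1low macrophages, where only the Cx3cr1-/- array was. Untreated Mgl1low macrophages were therefore low while their day-4 counterparts were not, and again no value overlapped.

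Among the 4 day-4 subsets Cox6a2 differed with an adjusted p of 3.57e-04. Only Uqcrc2 (adjusted p = 0.0365) also passed that test, so 2 of 81 genes did, or 2.47%, against 10.4% of all tested probes. With the strain as a block 5 did, the further ones being Ndufa6 (adjusted p = 0.0171), Ndufb3 (0.0426) and Cox7a2l (0.0308). F4/80low cells had less Cox6a2 than the mean of the other 3 subsets (difference -1.20, 95% interval -1.65 to -0.74, adjusted p = 0.00209), at least 1.22-fold less given that the gene was not above background there. Mgl1high macrophages had more (1.25, 0.80 to 1.71, adjusted p = 0.0037), at least 1.93-fold, and Cox6a2 was the 1 gene of the 81 called in that subset (1.23%, against 1.26% of probes higher and 1.02% lower, 2.28% in all). This call was lost without the Ccl2-/- arrays (adjusted p = 0.0674) or the Cx3cr1-/-Ccl2-/- arrays (0.0543) and under median scaling (difference 0.70, adjusted p = 0.159). Cox6a2 entered the day-4 tests through the groups in which it was high. Outside Mgl1high macrophages it was above background on 6 of 12 arrays, too few for the filter on day-4 arrays. Its adjusted p-values among the day-4 subsets, and the counts that include it, are therefore descriptions. Mgl1low macrophages had 0.82 more (adjusted p = 0.074) and Ly6Chigh monocytes 0.87 less (difference -0.87, adjusted p = 0.0564); with the strain as a block both passed, at 0.0452 and 0.0395, and so they did without the weak arrays, at 0.00882 and 0.0146. In bulk samples such as these, fewer cells that express a gene and less of its RNA per cell cannot be told apart.

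In Mgl1low macrophages Cox6a2 rose 2.72-fold on day 4 against untreated muscle (1.45, standard error 0.26, adjusted p = 0.00121), with 4 of 4 day-4 arrays and 1 of 4 untreated arrays above background. In untreated muscle it was 2.79-fold higher in Mgl1high than in Mgl1low macrophages (1.48, adjusted p = 0.00138). Both folds are taken against untreated Mgl1low values that were mostly not above background, so their size is uncertain. The injury effect in Mgl1high minus that in Mgl1low macrophages was -1.15 (adjusted p = 0.058), which became 0.0374 with the strain as a block and 0.0384 without the weak arrays.

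**Figure D2:**
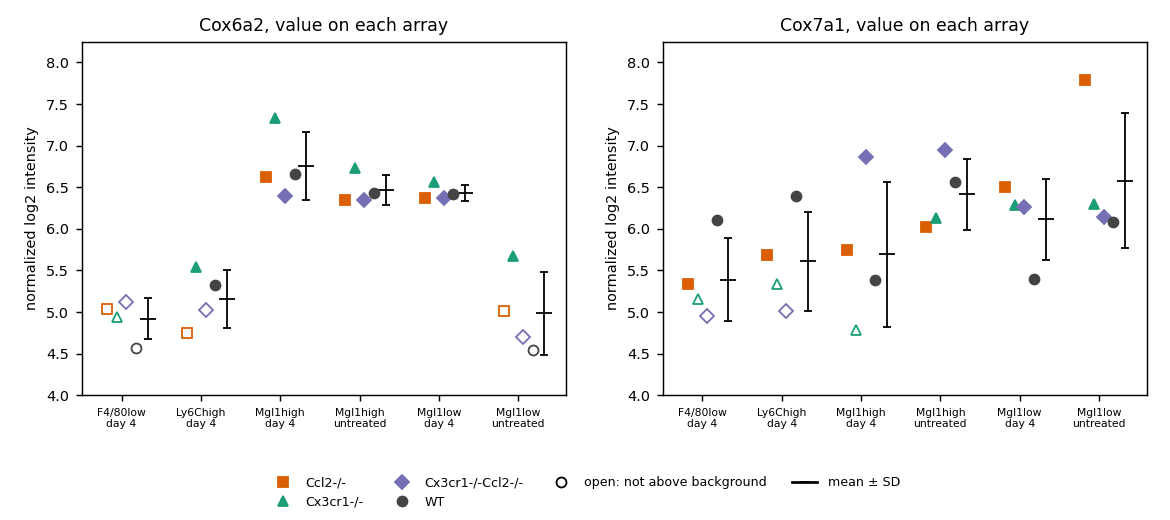
Normalized log2 intensity of Cox6a2 (left) and Cox7a1 (right) on each of 24 arrays in 6 groups; symbols are strains, open symbols were not above background, and bars are the mean ± SD (n = 4). Cox6a2 lies between 6.35 and 7.33 in 3 of the macrophage groups and between 4.55 and 5.67 in the others, while the groups of Cox7a1 overlap.

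The other genes of muscle isoforms did not share this pattern. Cox7a1, the muscle form of subunit VIIa, read 5.33, 5.16, 4.96 and 6.11 in F4/80low cells and 5.69, 5.34, 5.01 and 6.40 in Ly6Chigh monocytes. It read 5.74, 4.78, 6.86 and 5.38 in day-4 Mgl1high macrophages and 6.51, 6.29, 6.26 and 5.40 in day-4 Mgl1low macrophages, so that the 4 subsets overlapped (adjusted p = 0.522). In untreated muscle it read 6.02, 6.13, 6.95 and 6.56 in Mgl1high and 7.79, 6.29, 6.14 and 6.09 in Mgl1low macrophages, and it passed the test in none of the comparisons made. Cox8b, the muscle form of subunit VIII, was above background on none of the 24 arrays, nor were Cox4i2, the form known from lung and low oxygen, and Cox6b2, Cox7b2 and Cox8c, which are known from testis. Of their general counterparts, Cox4i1 and Cox6b1 were above background on all arrays. Cox4i1 lay between 9.51 and 10.55 and Cox6b1 between 10.16 and 11.63, and neither was called in any comparison. Cox8a, the general form of subunit VIII, was not among the genes followed. Under median scaling Cox4i1 was called lower in day-4 Mgl1high than in day-4 Mgl1low macrophages (-0.94, adjusted p = 0.0426). Cox7a2, the general form of subunit VIIa, was above background on 20 arrays.

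Because the cells came from muscle, a list of 14 muscle fibre genes was measured beside Cox6a2. Their summed linear intensity was 533 to 798 in F4/80low cells, 486 to 569 in Ly6Chigh monocytes, 828 to 1001 in Mgl1high and 564 to 814 in Mgl1low macrophages on day 4, and 1269 to 3021 in Mgl1high and 690 to 1933 in Mgl1low macrophages of untreated muscle. Ckm, the creatine kinase of muscle, was above background on 3 arrays, Mb, its oxygen store, on 4, and Acta1, its actin, on 9. Of the 14 genes, 14 were above background on some array of untreated Mgl1high macrophages and 11 on every one. In untreated Mgl1low macrophages these counts were 12 and 3. On day 4 they were 10 and 3 in Mgl1high, 8 and 4 in Mgl1low, 4 and 1 in Ly6Chigh and 6 and 0 in F4/80low cells. In untreated muscle, where Cox6a2 was higher in Mgl1high macrophages, 3 of 8 tested fibre genes were also higher there, against 5.27% of probes. These were Tnnc2 (by 2.56), Acta1 (by 1.34) and Mylpf (by 1.27). Without the weak arrays 5 of 9 were higher there (median 1.38), against 6.46% of probes. Fibre genes were above background most often in untreated Mgl1high macrophages, so some could pass the filter through that group. Both shares are therefore descriptions. Of the 5 tested on day 4, Tnnt3 was higher in Mgl1high macrophages by 1.81 (adjusted p = 0.0148), against 1.26% of probes. The part of fibre genes in the Cox6a2 differences was not tested. Between day-4 and untreated Mgl1low macrophages, where Cox6a2 rose, 1 of 8 tested fibre genes was called, the calcium pump Atp2a1, which fell (-1.02, adjusted p = 0.0271), against 6.42% of probes lower; the median of the 8 was -0.24 and the summed intensities given above overlapped. Without the weak arrays Atp2a1 fell and the tropomyosin Tpm2 rose (0.84, adjusted p = 0.0469), of 9 tested, with a median of 0.02. In the RefSeq annotation Cox6a2 overlaps Itgad, an integrin gene, whose 5 probes were above background on no array.

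In F4/80low cells 6 genes rose and 1 fell, which is 7 of 81 (8.64%), against 4.44% of probes higher and 10.2% lower, 14.7% in all. The gene that fell was Cox6a2. Those that rose came from every complex: Ndufa6 and Ndufb3, accessory subunits of complex I, Sdhb of complex II, Uqcrc2, a core protein of complex III, Cox6a1 of complex IV and Atp5g2, which encodes subunit c of the rotating ring of ATP synthase. Sdhb read 7.07, 9.69, 8.39 and 7.46 in F4/80low cells, against 6.48, 6.20, 6.77 and 6.80 in Ly6Chigh monocytes, 6.61, 4.91, 8.08 and 6.32 in Mgl1high and 6.95, 6.91, 6.89 and 6.48 in Mgl1low macrophages. F4/80low cells had the highest value in all 4 strains, and the mean difference was 1.53 (standard error 0.46), or 2.89-fold (adjusted p = 0.0371).

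Uqcrc2 read 9.28, 9.92, 10.05 and 9.40 in F4/80low cells, against 8.47, 8.91, 8.40 and 8.46 in Ly6Chigh monocytes, 9.19, 8.44, 8.64 and 8.47 in Mgl1high and 9.05, 8.95, 8.79 and 8.66 in Mgl1low macrophages. The F4/80low values lay above all 12 others, by 0.96 on average (standard error 0.22, 1.94-fold, adjusted p = 0.00973). Cox6a1 read 9.49, 11.08, 11.26 and 9.63 in F4/80low cells, against 8.54 to 9.33 in Ly6Chigh monocytes, 9.01 to 10.41 in Mgl1high and 8.35 to 9.71 in Mgl1low macrophages, so that the groups overlapped (1.19, 2.27-fold, adjusted p = 0.039). Ndufa6 read 7.39, 8.97, 9.06 and 7.64 in F4/80low cells, against 6.24 to 7.31 in Ly6Chigh monocytes, 7.04 to 8.08 in Mgl1high and 6.63 to 7.58 in Mgl1low macrophages, with overlap (1.23, 2.35-fold, adjusted p = 0.023). Atp5g2 was 2.06-fold higher (adjusted p = 0.0443) and Ndufb3 1.96-fold (adjusted p = 0.0248).

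In each of the 6 genes that rose the highest F4/80low values were those of the Cx3cr1-/- and Cx3cr1-/-Ccl2-/- arrays, the weak arrays of this subset. Without the weak arrays none of the 6 passed, Cox6a2 alone did (-1.25, adjusted p = 0.00275), and 6.66% of probes were called. Leaving out the WT, Cx3cr1-/-, Ccl2-/- or Cx3cr1-/-Ccl2-/- arrays gave 4, 3, 6 and 1 genes. Other genes were lowest on the weak F4/80low array from Cx3cr1-/- mice: there Ndufab1 read 5.17 and Cox5a 6.17, neither above background, against 8.30 to 9.54 and 8.32 to 8.70 on the other 3. Under median scaling in place of the quantile step Cox6a2 alone was called, and the direction over the family turned: 45 of 81 differences were positive after quantile normalization (median 0.04, against -0.17 over all probes) and 10 of 81 after median scaling (median -0.66, against -0.53). How far the weak arrays made the 6 genes higher was not tested. Of the genes with a further detected probe, Sdhb (1.50, adjusted p = 0.0437) and Cox6a1 (1.30, adjusted p = 0.046) rose on that probe too, while Atp5pb, a stalk subunit of ATP synthase, was called on its further probe (0.99, adjusted p = 0.0308) and read the other way on its first (-0.89, adjusted p = 0.225). With the strain as a block 9 genes were called in place of 7, Uqcrh of complex III (0.65, adjusted p = 0.0425) and Cox7a2l (1.14, adjusted p = 0.0288) being added.

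**Figure D3:**
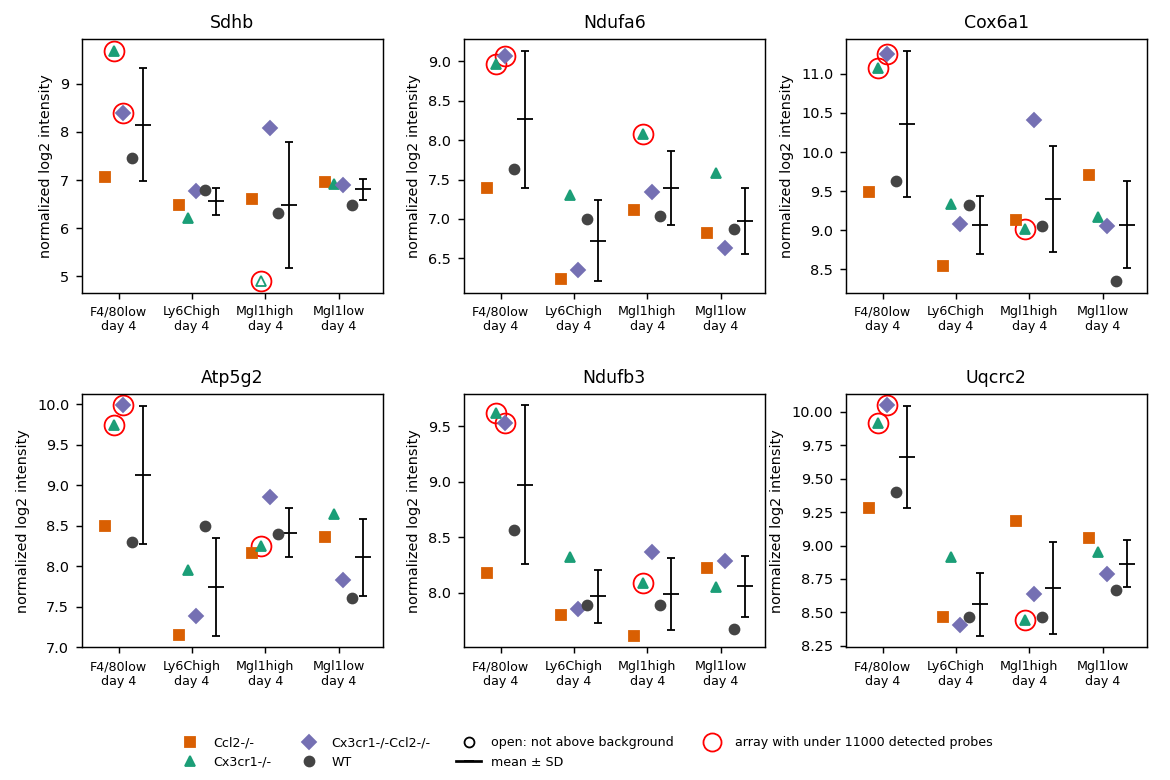
Normalized log2 intensity of the 6 genes called higher in F4/80low cells, in the 4 day-4 subsets (4 arrays each; symbols are strains, open symbols not above background, bars mean ± SD, red rings the weak arrays). The ringed F4/80low arrays are the highest of their subset in every panel, and the Ccl2-/- and WT arrays of F4/80low cells lie nearer to the other subsets.

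Many respiratory chain promoters are known to carry sites of the nuclear respiratory factors NRF1 and GABP (NRF2) or of YY1, so the 250 bases before the transcription start were searched on both strands in RefSeq windows (GRCm38.p6). The NRF1 core GCATGCGC was in 10 of 75 windows of the detected genes (13.3%), against 2.26% of all 32851 windows. The GABP core CCGGAAG was in 14 (18.7%, against 6.91%) and the YY1 core AAGATGGCG in 1 (1.33%, against 0.606%). Median GC content was 57.6% in these windows and 52.4% in all. Windows of 5 of the 6 genes that rose in F4/80low cells are shown, 5' to 3' toward the start, because these genes were called together. None of the 6 kept its call without the weak arrays, and no window was available for Uqcrc2. Capitals mark the NRF1 core or, in the last bases of Cox6a1, the GABP core.
Sdhb (chr4:140961021-140961270, plus strand): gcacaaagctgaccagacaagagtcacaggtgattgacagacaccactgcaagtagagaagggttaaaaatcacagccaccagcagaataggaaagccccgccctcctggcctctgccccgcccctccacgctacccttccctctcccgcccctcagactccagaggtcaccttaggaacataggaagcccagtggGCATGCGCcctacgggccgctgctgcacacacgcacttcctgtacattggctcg
Cox6a1 (chr5:115348959-115349208, minus strand): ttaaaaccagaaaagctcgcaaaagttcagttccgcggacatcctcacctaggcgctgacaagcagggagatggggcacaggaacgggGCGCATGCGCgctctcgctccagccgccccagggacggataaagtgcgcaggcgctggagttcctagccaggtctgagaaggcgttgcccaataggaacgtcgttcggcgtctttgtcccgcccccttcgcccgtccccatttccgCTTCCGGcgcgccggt
Ndufa6 (chr15:82354292-82354541, minus strand): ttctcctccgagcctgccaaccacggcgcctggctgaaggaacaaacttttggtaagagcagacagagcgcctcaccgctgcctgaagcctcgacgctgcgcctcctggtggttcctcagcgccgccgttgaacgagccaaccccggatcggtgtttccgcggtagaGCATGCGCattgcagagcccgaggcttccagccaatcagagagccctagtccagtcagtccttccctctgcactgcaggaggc
Atp5g2 (chr15:102671048-102671297, minus strand): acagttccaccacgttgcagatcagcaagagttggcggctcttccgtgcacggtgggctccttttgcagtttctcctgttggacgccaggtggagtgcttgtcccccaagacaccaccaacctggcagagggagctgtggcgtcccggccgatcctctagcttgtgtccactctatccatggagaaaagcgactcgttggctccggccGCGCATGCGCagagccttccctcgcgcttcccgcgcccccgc
Ndufb3 (chr1:58586147-58586396, plus strand): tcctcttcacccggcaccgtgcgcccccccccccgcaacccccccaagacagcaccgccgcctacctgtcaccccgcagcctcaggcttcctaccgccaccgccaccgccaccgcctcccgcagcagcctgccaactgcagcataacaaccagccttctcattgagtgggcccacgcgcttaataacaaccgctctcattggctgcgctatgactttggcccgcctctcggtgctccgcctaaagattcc
The NRF1 core is in 4 of these windows, on both strands in Atp5g2 and Cox6a1, where GCGCATGCGC reads the same on either strand, and that of Ndufb3 holds none of the 3 motifs. A match is a description of the letters and no measure of binding.

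In the other day-4 subsets the respiratory chain genes showed few differences. Ly6Chigh monocytes had 0 of 81 genes called, against 1.35% of probes, with 7 at an unadjusted p under 0.05 and 55 of 81 with a 95% interval within ±1 log2 unit. The largest differences were in Cox7a2l (-1.01, interval -2.02 to -0.01, adjusted p = 0.36) and Ndufv3 (-0.89, -1.54 to -0.25, adjusted p = 0.173), an accessory subunit of complex I. Cox7a2l read 6.88, 8.0, 7.04 and 7.93 in Ly6Chigh monocytes, against 8.05, 10.20, 9.88 and 8.17 in F4/80low cells, 7.10, 9.75, 9.55 and 8.24 in Mgl1high and 7.41, 8.47, 7.44 and 7.41 in Mgl1low macrophages. Its high values in F4/80low and Mgl1high cells were those of the arrays labelled Cx3cr1-/- and Cx3cr1-/-Ccl2-/-, on 3 weak arrays and 1 that was not. Cycs, cytochrome c, read 8.63, 7.88, 8.62 and 7.85 in Ly6Chigh monocytes, and its difference of 0.55 from the other subsets had an interval of -0.10 to 1.20.

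Mgl1low macrophages on day 4 had 0 of 81 genes called, against 1.02% of probes, and 1 at an unadjusted p under 0.05. Of the 81 differences 61 were positive (75.3%, against 60.9% of probes), with a median of 0.19, against 0.15 over all probes, and 46 intervals lay within ±1. The largest differences were in Ndufab1 (0.89, interval -0.21 to 1.99, adjusted p = 0.362) and Cox6a2. In Mgl1high macrophages 25 of 81 were positive (median -0.10, against -0.08), and 57 intervals lay within ±1. Of the complex II genes, Sdha read 8.35, 7.30, 7.98 and 7.95 in Mgl1high and 8.26, 7.78, 8.13 and 8.43 in Mgl1low macrophages, and the membrane anchors Sdhc and Sdhd lay between 10.70 and 11.27 and between 8.88 and 10.30 in both subsets.

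**Figure D4:**
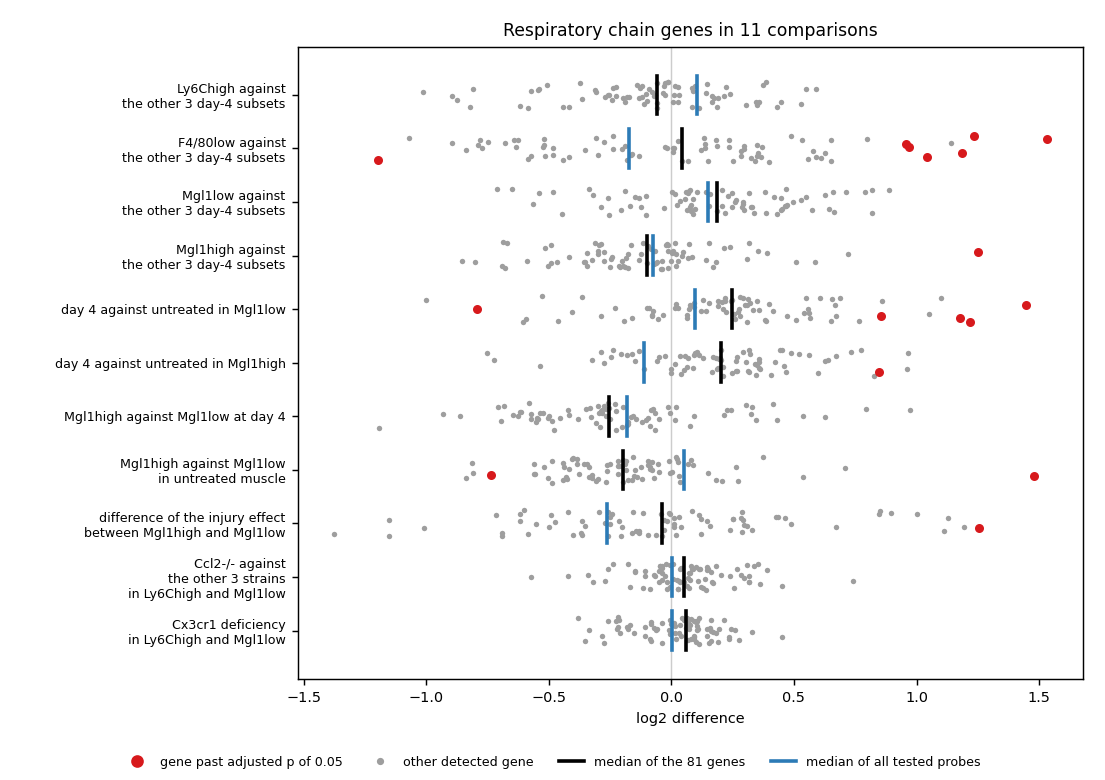
Log2 differences of the 81 detected genes in 11 comparisons (grey points, or red where the adjusted p was under 0.05), with the median of the genes (black) and of all tested probes (blue). Cox6a2 is the red point at the low end for F4/80low cells and at the high end for Mgl1high and for day-4 against untreated Mgl1low; the strain comparisons at the bottom are the narrowest and hold no red point.

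Injury was compared within each macrophage subset, day 4 against untreated muscle. In Mgl1low macrophages 4 genes rose and 1 fell, 5 of 81 (6.17%), against 9.06% of probes higher and 6.42% lower, 15.5% in all. Besides Cox6a2 the genes that rose belong to complex I: Ndufab1, the mitochondrial acyl carrier protein, Ndufc2, a membrane arm subunit, and Ndufaf1, an assembly factor. Ndufab1 read 9.79, 9.54, 9.72 and 8.97 on day 4, against 7.94, 8.36, 8.53 and 8.48 in untreated muscle, with no overlap (1.18, standard error 0.24, 2.26-fold, adjusted p = 0.00273). It kept its call in every alternative run, with differences of 0.92 to 1.98 and adjusted p up to 0.0442, and rose on its second probe (0.85, adjusted p = 0.0146). Ndufc2 read 9.30, 8.89, 9.42 and 9.62 on day 4, against 7.10, 8.37, 8.28 and 8.63 in untreated muscle, with no overlap (1.22, 2.33-fold, adjusted p = 0.0266). The lowest of these values was on a weak array, without which the difference was 0.89 (adjusted p = 0.0105). The call was lost without the WT, the Ccl2-/- or the Cx3cr1-/-Ccl2-/- arrays and with no filter on dim probes, and on its second probe the difference was 0.74 (adjusted p = 0.434).

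Ndufaf1 read 5.86, 5.69, 6.19 and 6.01 on day 4, against 4.57, 5.58, 4.91 and 5.26 in untreated Mgl1low macrophages, of which only the Cx3cr1-/- array was above background (0.86, 1.81-fold, adjusted p = 0.0491). It was above background on 4 day-4 and 1 untreated Mgl1low arrays, and on 4 day-4 and 2 untreated Mgl1high arrays. Without day-4 Mgl1low macrophages, where it was high, these are too few for the filter. Its adjusted p and the counts that include it are therefore descriptions. The gene that fell was Ndufa6, which read 6.83, 7.58, 6.63 and 6.87 on day 4, against 7.59, 7.68, 7.95 and 7.86 in untreated muscle, with no overlap (-0.79, adjusted p = 0.049). Its values came closest in the Cx3cr1-/- pools, and under median scaling the difference was 0.002 (adjusted p = 0.997). With the strain as a block 3 genes were called (Cox6a2, Ndufab1 and Ndufc2) in place of 5. In the same comparison 4 of 9 macrophage markers were higher on day 4, against 9.06% of probes. Of 7 tested monocyte markers 4 were lower (median -0.86), against 6.42% of probes. Without the weak arrays 3 macrophage markers were higher and 3 monocyte markers lower. Cd2, the 1 lymphocyte marker tested, was lower (-3.62). The part of these markers in the differences was not tested.

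In Mgl1high macrophages 1 of 81 genes was called (1.23%, against 1.05% of probes higher and 2.91% lower, 3.96% in all), Cox5a, a structural subunit of complex IV. It read 8.51, 8.84, 8.63 and 8.51 on day 4, against 7.61, 7.71, 7.86 and 7.91 in untreated muscle, with no overlap (0.85, standard error 0.22, 1.80-fold, adjusted p = 0.0359). The call was lost when any 1 strain was left out. In Mgl1low macrophages the same gene read 8.92, 8.67, 8.75 and 8.53 on day 4, against 7.63, 8.20, 8.49 and 8.40 in untreated muscle. These values did not overlap either, and the difference of 0.54 missed the threshold (adjusted p = 0.0986).

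**Figure D5:**
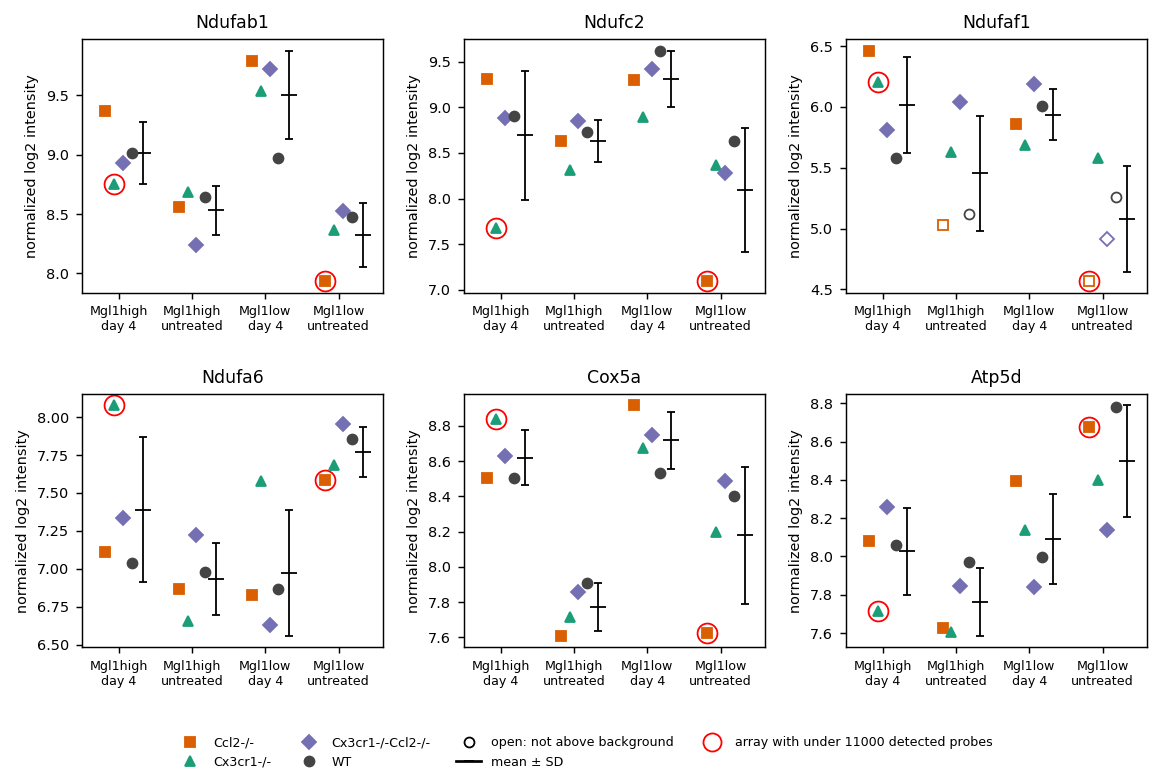
Normalized log2 intensity of 6 genes called between day-4 and untreated macrophages or between Mgl1high and Mgl1low macrophages (4 arrays a group; symbols are strains, open symbols not above background, bars mean ± SD, red rings the weak arrays). The day-4 values of Ndufab1 and Cox5a lie above the untreated ones with no overlap in both subsets, with Ndufab1 called in Mgl1low and Cox5a in Mgl1high macrophages.

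Over the family, a larger share of the differences between day 4 and untreated muscle was positive than over all probes, in both subsets. In Mgl1high macrophages 62 of 81 differences were positive (76.5%, against 41.4% of probes; median 0.20, against -0.11), and 68 lay above the median of all probes. In Mgl1low macrophages it was also 62 of 81 (76.5%, against 56.2%; median 0.25, against 0.10), and 53 lay above that median. By complex, the positive differences in Mgl1high and Mgl1low macrophages numbered 26 and 29 of 34 in complex I, 14 and 12 of 16 in complex V, 9 and 6 of 11 in complex IV and 4 and 4 of 7 in complex III. Under median scaling the sign of the family turned in Mgl1high macrophages, with 15 of 81 positive (median -0.24), but the median of all probes moved further (-0.44) and 61 genes still lay above it. In Mgl1low macrophages median scaling gave 79 positive (median 0.98, against 0.65) and 62 above. Without the weak arrays 75 of 81 were positive in Mgl1high (median 0.36, against -0.02) and 56 of 81 in Mgl1low macrophages (0.21, against 0.04). Since the genes share arrays, these counts carry no test. In Mgl1high macrophages 1 of 8 tested fibre genes (median -1.12) and 2 of 6 fibroblast genes (median -1.26) were lower on day 4. The limit that the filter sets on the fibre genes, given above, holds here too. Cd2 was lower too (-1.96), against 2.91% of probes. Of the macrophage markers 0 of 9 were called, and 1 of 7 monocyte markers was higher. The part of these markers in the Mgl1high differences was not tested.

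Mgl1high and Mgl1low macrophages were compared with each other in both conditions. In untreated muscle 1 gene was higher in Mgl1high macrophages, Cox6a2, and 1 lower, Atp5d, the delta subunit of the ATP synthase stalk (2 of 81, 2.47%, against 5.27% of probes higher and 2.79% lower, 8.06% in all). Atp5d read 7.63, 7.60, 7.85 and 7.97 in Mgl1high macrophages, against 8.68, 8.40, 8.14 and 8.78 in Mgl1low macrophages, with no overlap (-0.74, adjusted p = 0.0444), and it lost its call with the strain as a block, which left Cox6a2. All 16 detected genes of complex V lay lower in Mgl1high macrophages (median -0.33, range -0.81 to -0.14), and 18 of 81 genes were positive overall (22.2%, against 54.2% of probes; median -0.20, against 0.05). Under median scaling 8 of the 16 were positive and 58 of 81 in all (median 0.16), while all probes shifted to a median of 0.32, and none of the 16 lay above that median in either scaling. In the same comparison 5 of 6 tested fibroblast genes were higher in Mgl1high macrophages (median 1.78), with summed intensities of 2693 to 5659, against 855 to 1405 in Mgl1low macrophages. Of the macrophage markers 5 of 9 were higher, and of 7 tested monocyte markers 1 was higher and 3 lower (median -0.87). Cd2 was lower (-1.76), and the fibre genes were given above. The part of these cells in the complex V differences was not tested. Without the weak arrays 5 genes were called: Cox6a2, Atp5d, Cox5a, Ndufa6 and Uqcrc1.

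On day 4, 0 of 81 genes were called between Mgl1high and Mgl1low macrophages, against 3.46% of probes, with 12 at an unadjusted p under 0.05 and 48 intervals within ±1. Of the 81 differences 17 were positive (median -0.25, against -0.18 over all probes). The largest was in Ndufaf5, an assembly factor of complex I, which read 7.03, 4.76, 5.19 and 6.83 in Mgl1high macrophages, against 7.40, 7.04, 7.30 and 6.85 in Mgl1low macrophages (-1.19, adjusted p = 0.161), the middle pair of the Mgl1high values not being above background. Next was Cox7a2l (0.97, interval -0.02 to 1.97, adjusted p = 0.201). Under median scaling 41 genes were called, all lower in Mgl1high macrophages, but so were 36.4% of all probes, whose median was -0.80 against -1.04 for the genes.

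The injury effect differed between the subsets for 1 of 81 genes (1.23%, against 3.08% of probes positive and 4.65% negative, 7.73% in all). The Ndufa6 difference between day 4 and untreated muscle was 1.25 higher in Mgl1high than in Mgl1low macrophages (standard error 0.37, interval 0.47 to 2.04, adjusted p = 0.0476). In Mgl1high macrophages it read 7.11, 8.08, 7.34 and 7.04 on day 4, against 6.87, 6.65, 7.22 and 6.98 in untreated muscle, and the 8.08 came from a weak array. With the strain as a block, or without the weak arrays, Ndufa6 did not pass and Cox6a2 did, with the opposite sign, and under median scaling the Ndufa6 difference was -0.16.

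Strains were compared over the Ly6Chigh and Mgl1low arrays of day 4, 8 in all, where no array was weak. As each strain was 1 pool, these p-values measure only how alike a difference was in both subsets of that pool. In Ccl2-/- mice against the other 3 strains 0 of 81 genes were called, against 0.714% of probes, with 3 at an unadjusted p under 0.05, and 78 intervals lay within ±1. The largest difference was in Cycs, which read 8.63 in Ccl2-/- Ly6Chigh monocytes, against 7.88, 8.62 and 7.85 in Cx3cr1-/-, Cx3cr1-/-Ccl2-/- and WT cells, and 8.56 in Ccl2-/- Mgl1low macrophages, against 7.40, 8.10 and 7.29 in those strains. Both strains without CCL2 thus lay above both with it, in each subset. The difference was 0.74 (interval 0.33 to 1.15, adjusted p = 0.101), it passed without the Cx3cr1-/-Ccl2-/- arrays (0.99, adjusted p = 0.048) and under median scaling (adjusted p = 0.0324), and the second Cycs probe gave 0.78 (adjusted p = 0.23). Next was Cox7a2l (-0.57, adjusted p = 0.265).

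In the Cx3cr1-deficient pools (Cx3cr1-/- and Cx3cr1-/-Ccl2-/-) against the proficient ones (Ccl2-/- and WT) 0 of 81 genes were called, against 0.0416% of probes, 3 had an unadjusted p under 0.05, and all 81 intervals lay within ±1. The largest differences were in Ndufb11 (0.45, adjusted p = 0.822) and Ndufaf8 (-0.38, adjusted p = 0.831). Within single subsets the order of strains differed. In day-4 Mgl1low macrophages the Ccl2-/- array was the highest of its group for 45 of 81 genes (55.6%, against 26.3% of probes) and the WT array the lowest for 55 (67.9%, against 30.3%). In Ly6Chigh monocytes it was the reverse: the Ccl2-/- array was the lowest for 41 (50.6%, against 29.7%) and the WT array the highest for 36 (44.4%, against 28.1%). These are single arrays, and no test applies.

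The rest of the pathway was followed through lists of genes around the respiratory chain. In F4/80low cells 3 of 15 tested citric acid cycle genes rose (against 4.44% of probes higher and 10.2% lower), fumarase Fh1 by 1.18, malate dehydrogenase Mdh2 by 0.82 and citrate synthase Cs by 0.82, and isocitrate dehydrogenase Idh2 fell (-1.68). Of 22 tested assembly factors Oxa1l, the insertase of the inner membrane, rose (1.70) and Coa5 (-1.60) and Tmem126b (-1.08) fell, and of 16 genes of mitochondrial biogenesis the GABP subunit Gabpb1 rose (1.50) and the nuclear receptor Esrra fell (-0.79). Without the weak arrays none of these 9 genes was called in F4/80low cells, against 2.70% of probes higher and 3.95% lower. In Mgl1low macrophages 4 of 23 tested assembly factors were higher on day 4 than in untreated muscle: Tmem126b by 1.38, Coa5 by 0.95, Cox15 by 0.94 and Surf1 by 0.68, against 9.06% of probes higher and 6.42% lower. Atpaf2 fell (-0.80), and all 5 kept their calls without the weak arrays. Cyc1 (1.03), the fatty acid carrier enzyme Cpt2 (1.14) and Idh2 (0.80) also rose there. Each was the 1 gene called in its list, of 15 tested electron carriers, 12 fatty acid oxidation and 15 citric acid cycle genes. These shares are 6.67%, 8.33% and 6.67%, against the 9.06% of probes higher. Of 70 tested mitochondrial ribosomal protein genes 6 rose and 1 fell, 7 in all, against 15.5% of probes, with a median of 0.57. In Mgl1high macrophages none of these lists held a gene that was called between day 4 and untreated muscle, and the mitochondrial ribosomal median was 0.23. The difference between the subsets passed for Tmem126b (-1.59, adjusted p = 0.041) and Surf1 (-1.07, adjusted p = 0.0369).

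Of 14 tested glycolysis genes, 2 were lower in Mgl1high than in Mgl1low macrophages of untreated muscle, against 2.79% of probes. These were the glucose transporter Slc2a1 (-2.30, adjusted p = 0.0134) and the lactate exporter Slc16a3 (-1.35, adjusted p = 0.0323). Without the weak arrays 5 of 15 were lower and 1 higher there, against 4.3% and 6.46% of probes. In day-4 Mgl1high macrophages Slc2a1 and Slc16a3 were lower than in the other 3 subsets (-2.34 and -1.32), 2 of 14 tested, against 1.02% of probes lower. Ly6Chigh monocytes had more Slc16a3 (1.86, adjusted p = 0.00342), 1 of 14 tested glycolysis genes. They had less Fh1 (-1.79, adjusted p = 0.00119), 1 of 15 tested citric acid cycle genes, against 1.35% of probes called in that comparison. In the Ccl2-/- pool Sod2, the superoxide dismutase of mitochondria, was higher in the subsets tested (0.95, adjusted p = 0.0421), 1 of 7 tested genes of its list, whose median was -0.21, against 0.714% of probes called.

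A further detected probe existed for 25 of the 81 genes. Its difference had the sign of the first probe for 14 to 21 of the 25 genes, depending on the comparison, and in no comparison but F4/80low cells and day-4 against untreated Mgl1low macrophages were both probes of a gene called. Such pairs of probes can read different transcripts of a gene, and genes named here by a single probe carry that limit.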

How the data were processed

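Arrays were Illumina WG6 version 2 beadchips, hybridised with RNA amplified by the Ovation Pico system. The authors exported unnormalized probe signals with detection p-values from GenomeStudio (version not given in the sources used here); these deposited intensity values were used. Their processed table, quantile-normalized by the authors, served as an alternative (within 0.0276 of quantile-normalized log2 signals).

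Signals were background-corrected with the detection p-values (limma 3.58.1 in R 4.3.3, nec, offset 16), quantile-normalized over 24 arrays and taken to log2. Probes above background (p under 0.05) on at least 8 of 16 day-4 arrays, 8 of 16 Mgl1high and Mgl1low arrays of both conditions, or 4 of 8 arrays of the strain comparisons were tested with lmFit and eBayes, adjusted by Benjamini-Hochberg over all of them. Genes were named from the platform annotation: 34885 probes had 1 symbol, 18 several and 10378 none. Scripts were tested on simulated data. Promoters were RefSeq's (GRCm38.p6).

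The members and gene lists were chosen with earlier results of these data known. Named with values were, in each comparison, up to 3 called genes per direction that moved alike in all pools, or else the 2 with the largest difference, plus complex II, Cycs and isoform pairs; other genes were picked after their values were seen.

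Subsets of a strain and condition came from the same pool, so arrays are paired by design. Deviations from group means correlated over 24 same-strain pairs with a median of 0.162 (-0.00229 to 0.441) on day 4, against -0.0618 over 72 other pairs; for Mgl1high and Mgl1low arrays of both conditions it was 0.106 (-0.143 to 0.256), against -0.0167. The number of arrays limits the precision. No pair of arrays held identical values.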

Additional observations from a re-analysis of the deposited data

Results flagged for a closer look

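Within groups of 4 arrays, 10 of 168 gene and group combinations examined (28 genes) had 1 array far from the other 3 by Dixon's criterion, which chance alone flags in about 1 of 20 groups. On day 4, Cox5a read 6.168 in F4/80low cells of Cx3cr1-/- mice, a weak array, against 8.316 to 8.705 in the other 3 strains. Cox7a2l read 8.472 in Mgl1low macrophages of Cx3cr1-/- mice, against 7.414 to 7.443, and Cox6a1 read 10.41 in Mgl1high macrophages of Cx3cr1-/-Ccl2-/- mice, against 9.009 to 9.126; neither of these arrays was weak. Uqcrc2 read 8.913 in Ly6Chigh monocytes of Cx3cr1-/- mice, against 8.403 to 8.465, and Cox4i1 read 9.982 on the same array, against 10.13 to 10.15. Sdhc read 10.45 in Ly6Chigh monocytes of Ccl2-/- mice, against 10.75 to 10.81. Sdhb read 6.48 in Mgl1low macrophages of WT mice, against 6.891 to 6.952. Cox8b read 4.445 in Mgl1high macrophages of WT mice, against 4.754 to 4.79, none of these values being above background. In untreated Mgl1low macrophages Cox7a1 read 7.787 in Ccl2-/- mice, a weak array, against 6.086 to 6.294, and Cox7a2l read 7.613 in WT mice, against 8.444 to 8.569.

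The injury effect on Ndufa6 differed between Mgl1high and Mgl1low macrophages by 1.25444 log2 units in the test of the difference itself (adjusted p = 0.0476), the call that was lost with the strain as a block and without the weak arrays.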

How the results depend on the processing

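The Cox6a2 differences of F4/80low cells (-1.33 to -0.40), of day-4 against untreated Mgl1low macrophages (0.48 to 1.96) and of Mgl1high against Mgl1low macrophages in untreated muscle (0.50 to 1.69) kept direction and call in every alternative that tested the gene (requiring detection in every array left it out), and Ndufab1 did so in every alternative run of day-4 against untreated Mgl1low macrophages. Most alternatives kept a filter that Cox6a2 passed on day 4 through the groups in which it was high, so its F4/80low calls remain descriptions. Median scaling in place of the quantile step gave 1 gene among the 4 day-4 subsets, 1 in F4/80low cells, 1 in Mgl1low and 0 in Mgl1high macrophages against the other subsets. Between day 4 and untreated muscle it gave 19 in Mgl1low macrophages, all higher (27.2% of probes higher, 1.79% lower), and 0 in Mgl1high. Between Mgl1high and Mgl1low macrophages it gave 41 on day 4 (1.17% of probes higher, 36.4% lower) and 1 in untreated muscle, 14 for the difference of the injury effect, all negative, and 1 in Ccl2-/- mice. It moved the median of all probes from -0.17 to -0.53 in the F4/80low comparison and turned Ndufa6 to 0.001651 between day-4 and untreated Mgl1low macrophages and to -0.161141 for the difference between subsets.

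With the strain as a replicate block, counts moved to 5 among the 4 subsets, 1 in Ly6Chigh, 1 in Mgl1low, 3 in day-4 against untreated Mgl1low and 1 in Mgl1high against Mgl1low of untreated muscle; the other comparisons stayed within 1.5 times. Without the weak arrays they were 1 among the 4 subsets, 1 in Ly6Chigh, 1 in F4/80low, 1 in Mgl1low, 2 in day-4 against untreated Mgl1high and 5 in untreated Mgl1high against Mgl1low. No filter on dim probes gave 1 in Ly6Chigh, 1 in Mgl1low, 2 in day-4 against untreated Mgl1low and 0 for the difference of the injury effect, and requiring detection in every array gave 0 in Mgl1high. Leaving out 1 strain gave 1 to 1 genes among the 4 subsets, 1 to 6 in F4/80low, 0 to 1 in Mgl1high, 2 to 5 in day-4 against untreated Mgl1low, 0 to 0 in day-4 against untreated Mgl1high, 1 to 1 in untreated Mgl1high against Mgl1low, 0 to 0 for the difference of the injury effect and 0 to 1 in Ccl2-/- mice. The methods' one-way test gave 3 genes among the 4 subsets, at an unadjusted p under 0.01 and after adjustment. Omitting the background correction, taking the processed table or normalizing each fit by itself moved no count beyond 1.5 times. The counts of the gene lists without the weak arrays were added after seeing the data. The cause of these changes was not tested. Slide as a block was not run, as the files give no slide, and the strain comparisons have no further block. Genes near background, such as Ndufaf1 and Cox7a1, have little signal to show a difference.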

Other observations

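The array medians of complex V genes averaged 9.56 ± 0.26 in day-4 and 9.24 ± 0.26 in untreated Mgl1high macrophages, and 9.80 ± 0.26 and 9.56 ± 0.18 in day-4 and untreated Mgl1low macrophages (SD, n = 4 each). Those of complex III were 8.94 ± 0.34 in F4/80low cells, with an array range of 8.65 to 9.31, against 8.25 ± 0.17, 8.10 ± 0.77 and 8.43 ± 0.27 in Ly6Chigh, Mgl1high and Mgl1low cells of day 4. The complex I assembly factors had array medians of 4.92 to 6.71, and 0 of the 7 detected were above background in every array. Ndufs3, a core subunit of complex I, was not called in any comparison, and under median scaling it was called between day-4 and untreated Mgl1low macrophages (adjusted p = 0.0223). It read 6.07, 7.58, 8.07 and 5.29 in F4/80low cells.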
